A study of Mus musculus with 8 samples.

Results

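DNA methylation was described at 31 genes of the autophagy pathway in mouse hematopoietic stem cells, the bone marrow cells that renew the blood. The genes encode the initiation kinases, the lipid kinase complexes, the lipid supply proteins, the Atg8 proteins, the cargo receptors and a lysosomal pair. They were taken by name, from a list chosen with earlier results of these data known. Every CpG from 5 kb before to 5 kb after each gene (GRCm38 RefSeq coordinates) was kept when it had 10 or more reads in at least 3 mice of each group. This gave 2502 CpGs of the 1276148 autosomal CpGs that met the same minimum, at 31 of 20661 autosomal protein-coding genes. All 31 genes had CpGs, with as few as 23 at Pik3c3 and as many as 221 at Tfeb.

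The tested mice were 4 Atg12 cKO mice, which carry loxP-flanked Atg12 alleles (Atg12fl/fl) and Mx1-Cre, a recombinase under an interferon-inducible promoter that is active across blood cells and in other tissues. They were set against 4 control mice, described in the design text as Atg12flox/flox without Cre and labelled WT, so whether the controls carry loxP sites is open. Both groups are C57BL/6, both received poly(I:C), an inducer of interferon, at 4 weeks of age, and cells were sorted 2 to 3 months later as Lin-, c-Kit+, Sca-1+, Flk2-, CD48- and CD150+. Each library came from a single mouse and was made by enhanced reduced representation bisulfite sequencing, which reads CpG-rich restriction fragments after bisulfite has turned unmethylated cytosines into thymines. The question the design sets is whether stem cells that lose Atg12, a ubiquitin-like protein needed to lipidate Atg8 proteins, differ in methylation, here at the genes of the same pathway.

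In autophagy, a double membrane closes around cytoplasm and fuses with the lysosome. The ULK kinase complex starts the process, the class III PI3-kinase complexes mark the membrane with phosphatidylinositol 3-phosphate, Atg9 and Atg2 proteins bring lipid, and Atg8 proteins on the growing membrane bind the receptors that carry cargo. Methylation of a CpG island at a gene's start is a mark of stable silencing, whereas methylation inside transcribed genes is the usual state of mammalian DNA. Blood stem cells are known to depend on autophagy for keeping mitochondria and metabolism low.

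The libraries held 2038266 to 3366162 listed cytosines, and the median coverage over CpGs read in all 8 mice was 210 to 290 reads. At the listed genes the median was 230 to 334 reads per CpG. The libraries differed in how deeply methylated DNA was read. The ratio of median coverage at CpGs over 90% to that at CpGs under 10% was 0.342, 0.502, 0.561 and 0.46 in cKO mice 25, 28, 45 and 46, against 0.742, 0.26, 0.695 and 0.574 in control mice 1, 34, 36 and 37, so control 34 lay lowest of all 8. Cytosines of the Y chromosome made up 8.52 ± 0.472 per 10000 listed in the cKO mice and 1.45 ± 0.286 in the controls (SD, n = 4 each). Y content was thus high in every cKO mouse and low in every control, and its part in any difference between the groups cannot be told apart from that of genotype. Among stem cell marker genes, the starts of Kit, Cd34, Mecom, Meis1, Gata2, Hlf and Procr were measured, 7 of 12 listed, and all were under 5%. So were 86.6% of start ends of all genes, and these levels do not identify the cells. Krt5, a keratin of skin, was at 81.9% ± 5.18 in cKO mice and 92.4% ± 5.17 in controls (SD, n = 4 each). No start of the listed T cell, B cell or myeloid markers had 3 CpGs, so admixture of those cells was not tested. Of the erythroid markers, the start of Klf1 was at 0.265% ± 0.343 in cKO mice and 0.677% ± 0.278 in controls, and that of Epor, with 3 CpGs, at 27.9% ± 27.6 in cKO mice and 24.5% ± 9.5 in controls (SD, n = 4 each). The end of Atg12 itself at its upper gene coordinate was at 0.23% ± 0.128 in cKO mice and 0.107% ± 0.0516 in controls (SD, n = 4 each), which does not check the deletion.

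Methylation followed position in the gene. Of the 1215 CpGs within 1 kb of a start, 1206 had a mean level under 10%. Inside the genes, more than 1 kb from both ends, 437 of 657 CpGs were over 90%. Together, 72.1% of the CpGs at the listed genes were under 10% and 21.2% over 90%, against 58.1% and 27.5% in the whole autosomal table. Of the 2502 CpGs, 302 had a mean level between 5 and 95%, the range in which differences were tested.

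**Figure D1:**
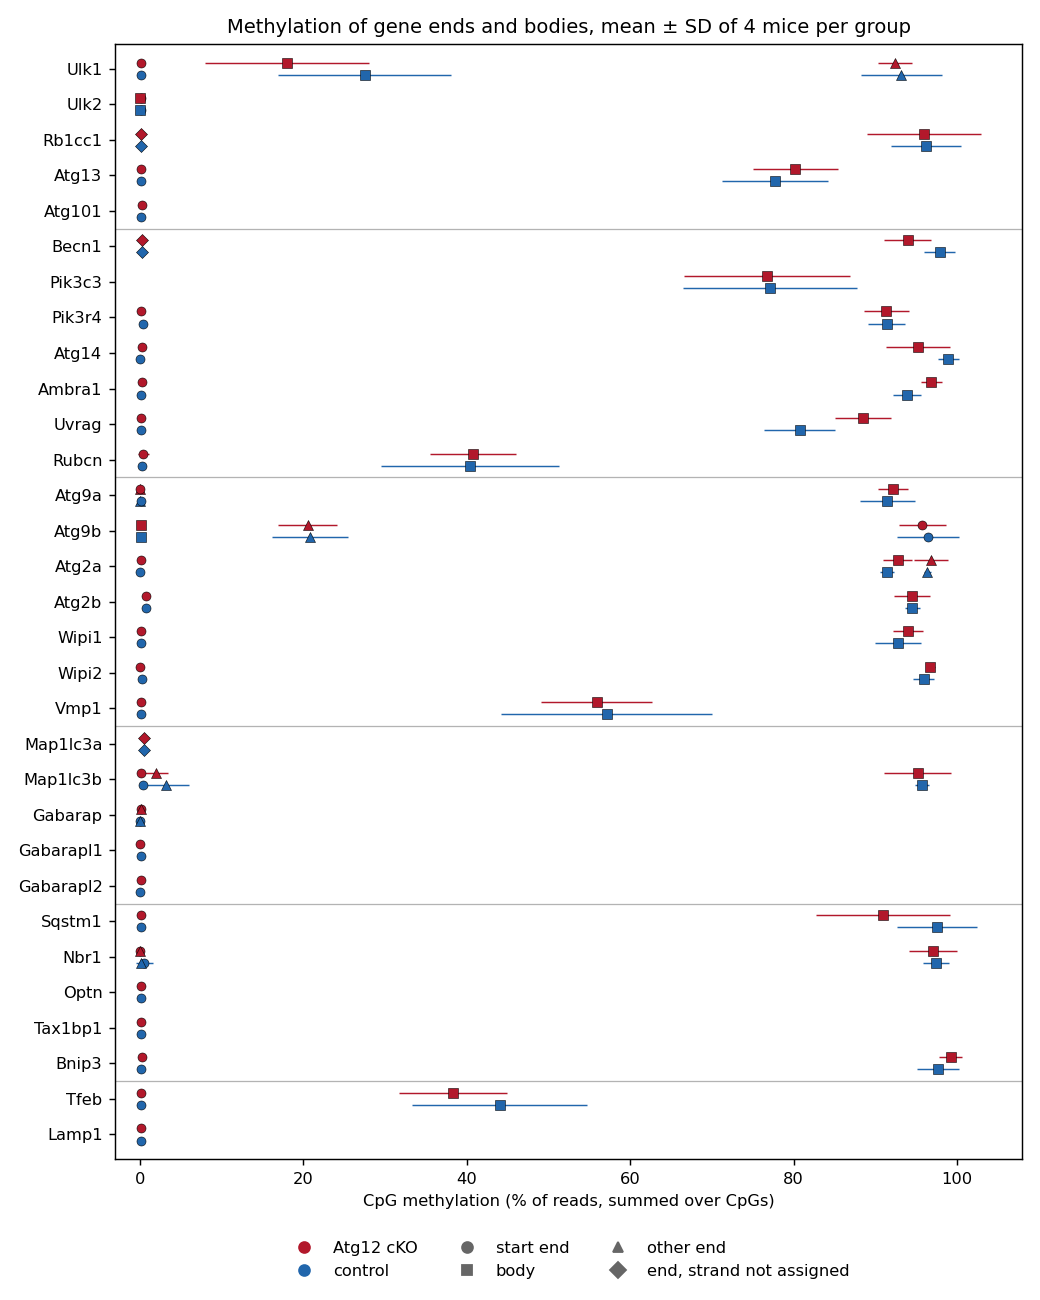
Methylation levels in percent (x axis) of the gene ends and bodies of the 31 genes, ordered by role, as mean ± SD of 4 Atg12 cKO mice (red, upper) and 4 control mice (blue, lower). Start ends of 26 genes sit under 1%, that of Atg9b sits at 95.8% in cKO mice and 96.4% in controls, and most bodies lie over 80%.

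The starts are best shown by a pair of paralogs that stand at opposite ends of the scale. Atg9a and Atg9b both encode Atg9, the scramblase of the vesicles that seed the autophagosome; Atg9a is the widely used copy and Atg9b a tissue-restricted one. The 250 bases before their starts (RefSeq, GRCm38.p6, minus strand, printed 5′ to 3′ with every CpG in capitals) differ in CpG content.
Atg9a, chr1:75192011-75192260: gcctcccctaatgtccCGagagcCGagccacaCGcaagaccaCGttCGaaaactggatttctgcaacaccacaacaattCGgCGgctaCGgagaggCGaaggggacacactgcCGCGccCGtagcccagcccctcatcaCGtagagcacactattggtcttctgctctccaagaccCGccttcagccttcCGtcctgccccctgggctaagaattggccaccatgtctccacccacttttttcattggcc
Atg9b, chr5:24392144-24392393: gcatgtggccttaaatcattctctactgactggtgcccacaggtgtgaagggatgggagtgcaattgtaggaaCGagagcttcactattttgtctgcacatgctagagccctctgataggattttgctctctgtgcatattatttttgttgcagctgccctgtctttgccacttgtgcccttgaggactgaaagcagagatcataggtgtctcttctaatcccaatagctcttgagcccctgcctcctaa
The Atg9a stretch holds 15 CpGs and the Atg9b stretch 1. Over the full RefSeq promoter of 300 bases, the median was 20 CpGs for the listed genes and 7 for all 32851 promoters. None of the CpGs in these 250 bases was measured, so the levels below come from CpGs elsewhere within 1 kb of the start.

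Other sequences matter later. Rubcn and Tfeb each have a RefSeq start inside the gene, and those internal starts were read in opposite states. The 250 bases before each are shown with CpGs in capitals, on the minus strand for Rubcn and on the plus strand for Tfeb.
Rubcn, chr16:32868367-32868616: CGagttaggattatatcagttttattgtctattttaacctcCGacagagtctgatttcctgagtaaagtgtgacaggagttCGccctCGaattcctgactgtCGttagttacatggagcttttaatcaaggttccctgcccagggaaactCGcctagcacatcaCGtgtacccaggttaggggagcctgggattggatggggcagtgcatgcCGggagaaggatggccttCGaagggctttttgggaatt
Tfeb, chr17:47785494-47785743: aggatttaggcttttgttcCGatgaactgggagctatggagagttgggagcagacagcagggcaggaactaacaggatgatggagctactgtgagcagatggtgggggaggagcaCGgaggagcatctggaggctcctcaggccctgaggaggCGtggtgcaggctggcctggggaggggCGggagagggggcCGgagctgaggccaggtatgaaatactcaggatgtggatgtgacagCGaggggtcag
Vmp1 overlaps the gene of microRNA miR-21a, whose mature arms are shown with the seed, bases 2 to 8, in capitals, because a low-methylated stretch lies just before it.
mmu-miR-21a-5p: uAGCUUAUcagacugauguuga
mmu-miR-21a-3p: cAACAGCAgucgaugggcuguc

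At the starts, levels were near 0 in both genotypes. Of 27 start ends with known strand and at least 3 CpGs, 26 were under 1%, with means over the 8 mice from 0.0719 to 0.75% and 14 to 100 CpGs each. Among all 10172 measured start ends of protein-coding genes, 71.7% were under 1% and 4.72% over 80%. Rb1cc1, Map1lc3a and Becn1 have no strand in the reference, and their CpG-rich ends were at 0.171 to 0.536%. Pik3c3, the lipid kinase itself, had no CpG that met the read minimum at either end, so its ends were not measured. Binned by distance along the 26 genes, both groups had a trough at the start. From 500 bp before the start to the start, the mean over 225 CpGs was 0.2% ± 0.136 in cKO mice and 0.189% ± 0.0671 in controls. In the first 500 bp of the gene, 797 CpGs were at 0.157% ± 0.0445 in cKO mice and 0.17% ± 0.0501 in controls. Further in, the bin from 1000 to 1500 bp, with 51 CpGs of 4 genes, was at 9.25% ± 0.647 in cKO mice and 9.02% ± 0.401 in controls. The next 500 bp, with 28 CpGs of 6 genes, were at 32.1% ± 1.12 in cKO mice and 31.7% ± 1.86 in controls (SD, n = 4 each). Upstream, from 1500 to 1000 bp before the start, 9 CpGs of 3 genes were at 87.2% ± 5.96 in cKO mice and 79.7% ± 5.24 in controls. Start ends fell outside the range of 5 to 95% and were not tested.

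**Figure D2:**
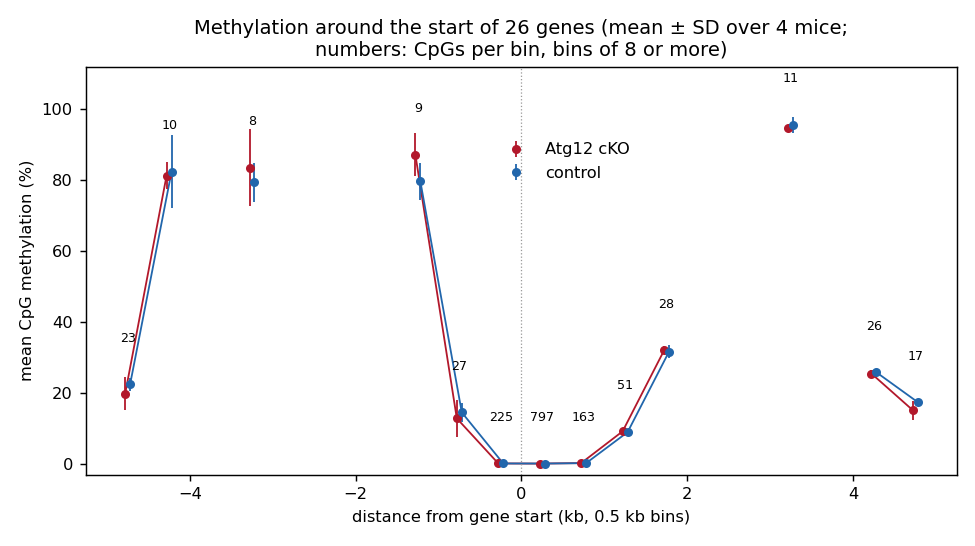
Mean CpG methylation in percent against distance from the gene start in 0.5 kb bins, for 26 genes, as mean ± SD of 4 Atg12 cKO mice (red) and 4 controls (blue), with the number of CpGs above each bin. Both groups sit under 1% from 0.5 kb before to 1 kb after the start and lie higher on both sides, and the bin from 4.5 to 5 kb is at 15.2% in cKO mice and 17.4% in controls.

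By role, the ULK complex starts (Ulk1 and Ulk2, the initiating kinases; Atg13 and Atg101, their regulatory subunits) had means of 0.147 to 0.226%. Starts of the class III PI3-kinase group were at 0.161 to 0.343%; these were Pik3r4, the scaffold subunit, Atg14, which directs the complex to autophagy, Ambra1, a Beclin 1 regulator, Uvrag, which serves endosomal complexes, and Rubcn, an inhibitor. Rubcn had the single highest value among those 5, at 1.45% in cKO 45, against 0.328% in the highest control. The lipid and membrane group other than Atg9b ranged from 0.0783% at Atg2a to 0.75% at Atg2b; Atg2a and Atg2b transfer lipid, Wipi1 and Wipi2 read the phosphoinositide mark, and Vmp1 is a scramblase of the endoplasmic reticulum. Atg8 starts (Map1lc3b, Gabarap, Gabarapl1 and Gabarapl2) were at 0.0719 to 0.264%. Cargo receptors ranged from 0.13 to 0.316%; Sqstm1, Nbr1, Optn and Tax1bp1 bind ubiquitinated cargo and Bnip3 is a mitophagy receptor. Tfeb, the transcription factor for lysosome genes, was at 0.115%, and Lamp1, a lysosomal membrane protein, at 0.189%.

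One start end had groups that did not overlap. Gabarapl1 was at 0, 0.0713, 0 and 0.046% in cKO mice 25, 28, 45 and 46, against 0.184, 0.0982, 0.161 and 0.14% in controls 1, 34, 36 and 37. The difference was -0.117 percentage points over 22 CpGs with 1403 to 2609 reads per mouse, so each value rests on a handful of reads showing C. Groups did not overlap in 2.8% of all start ends, and 1 of 27 is a share close to that.

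The exception at the start was Atg9b. Its 3 CpGs, 345 to 430 bp into the gene, were at 94.7, 95.2, 100 and 93.3% in cKO mice 25, 28, 45 and 46, against 92.8, 100, 99.5 and 93.4% in controls 1, 34, 36 and 37. The groups overlapped throughout. Means were 95.8% ± 2.93 in cKO mice and 96.4% ± 3.83 in controls (SD, n = 4 each), and 88 to 1616 reads stood behind each mouse. Atg9a, by contrast, was at 0.0574% ± 0.0346 in cKO mice and 0.158% ± 0.173 in controls over 34 CpGs. Inside Atg9b, between 4019 and 4259 bp from the start (chr5:24387884-24388124), 30 CpGs formed an unmethylated block of 0.21% ± 0.185 in cKO mice and 0.216% ± 0.16 in controls. A further 11 CpGs, 2 to 3 kb upstream toward Abcb8, were at 0.292% ± 0.496 in cKO mice and 0.092% ± 0.0233 in controls. In Atg9a the body was methylated instead, at 92.1% ± 1.83 in cKO mice and 91.5% ± 3.36 in controls.

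The other end of Atg9b, which overlaps Nos3, was partly methylated. Over 27 CpGs it was at 19, 16.3, 22.5 and 24.4% in cKO mice 25, 28, 45 and 46, against 25.4, 14.4, 21 and 22.5% in controls 1, 34, 36 and 37. These means, 20.6% ± 3.59 in cKO mice and 20.9% ± 4.65 in controls, combined 15 CpGs under 10% with 12 higher ones. The part nearest the gene, 7 CpGs at chr5:24384001-24385000, read 60.9, 69.3, 48.5 and 65.5% in cKO mice, against 82.2, 57.4, 76.8 and 89.1% in controls. The difference was -15.3 percentage points, and 3 of 4 controls lay above every cKO mouse (quasi-binomial test moderated with limma, adjusted p = 0.777).

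**Figure D3:**
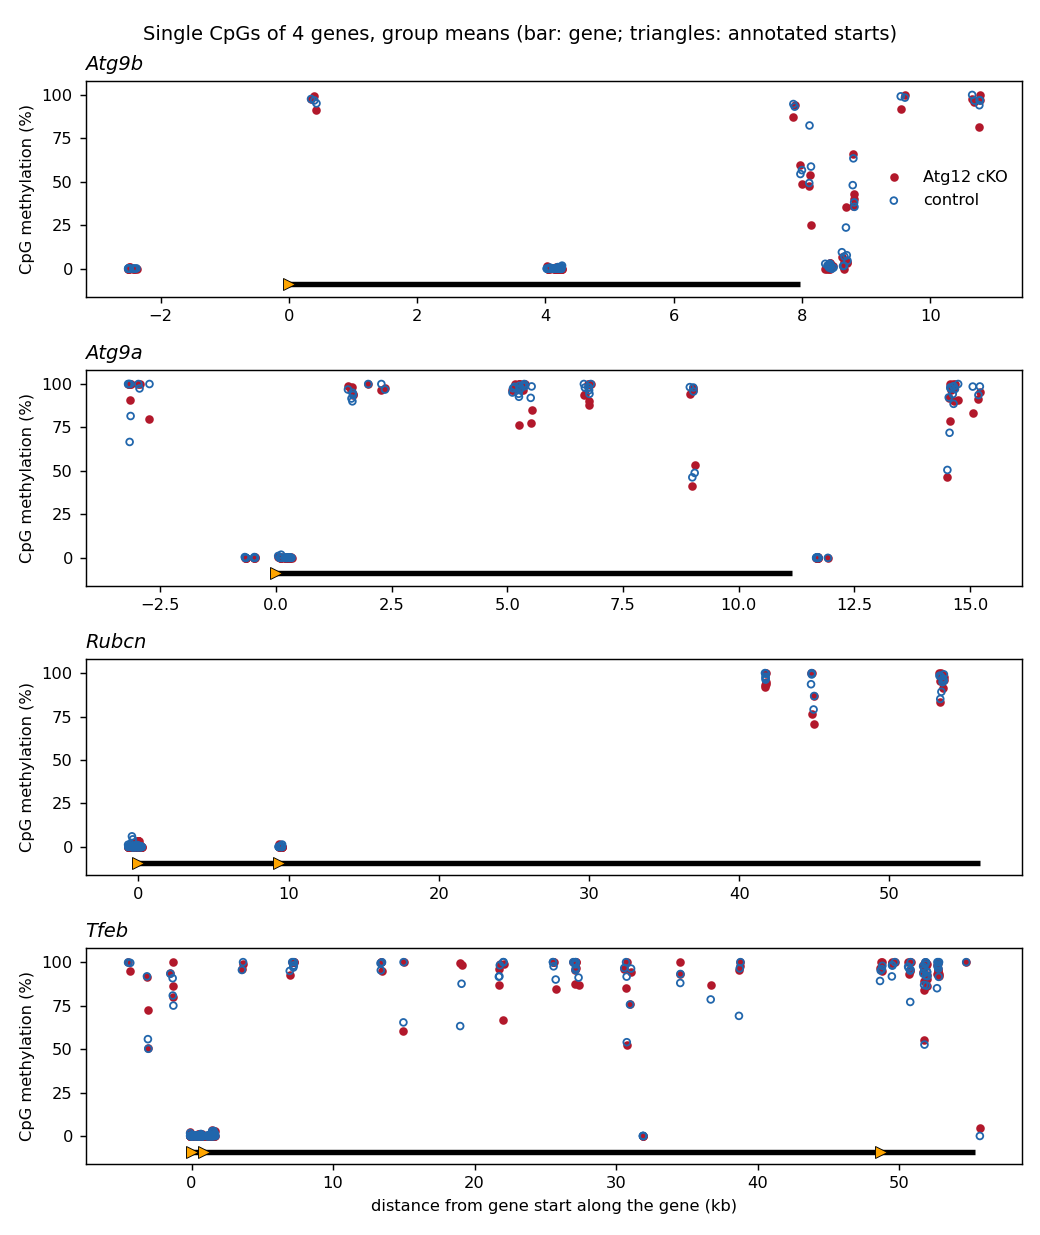
Level of each CpG in percent (group means) against distance from the gene start in kb for Atg9b, Atg9a, Rubcn and Tfeb, with Atg12 cKO as filled red points and controls as open blue circles; the bar is the gene and triangles are RefSeq starts. Atg9b is methylated at its start and unmethylated about 4 kb inside, Rubcn is unmethylated at both starts, and the last Tfeb start lies among methylated CpGs.

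Internal starts showed both states. Around the second Rubcn start, 9363 bp into the gene, 11 CpGs within 500 bp averaged 0.213% ± 0.33 in cKO mice and 0.204% ± 0.124 in controls. Around the third Tfeb start, 48707 bp into the gene, 4 CpGs averaged 98.2% ± 3.63 in cKO mice and 95.5% ± 3.9 in controls, while 52 CpGs around its first start averaged 0.108% ± 0.0705 in cKO mice and 0.0858% ± 0.0281 in controls (SD, n = 4 each). The Rubcn stretch printed above holds 9 CpGs, 2 of them measured, and the Tfeb stretch 6, with 2 measured. The third Vmp1 start, 12655 bp in, had no measured CpG.

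Other low-methylated windows inside bodies were few. A window of Ulk1 centred 1620 bp past its start (chr5:110808001-110809000) held 11 CpGs at 0.0201% ± 0.0403 in cKO mice and 0.0442% ± 0.051 in controls. These CpGs continue the unmethylated run at the Ulk1 start, which was unbroken from -185 to 2057 bp, and are those under 10% in the Ulk1 body. The window of Vmp1 at chr11:86586001-86587000 held 5 CpGs at 0.069% ± 0.0473 in cKO mice and 0.112% ± 0.096 in controls. It lies 1843 to 2842 bp before the hairpin of miR-21a, and no mouse exceeded 0.235%. The mature arms printed above are those RefSeq gives for that hairpin, which is transcribed in the direction of Vmp1.

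Several unmethylated starts are shared with a neighbour on the opposite strand. The starts of Rubcn and Fyttd1 lie 55 bp apart, as do those of Atg2b and Gskip. For Gabarapl1 and 1700101I11Rik the distance is 92 bp, for Atg9a and Ankzf1 150 bp, for Nbr1 and Brca1 152 bp, for Vmp1 and Ptrh2 238 bp and for Atg13 and Harbi1 255 bp. At these 7 genes the CpGs of the listed gene and of its neighbour cannot be told apart. Low levels past a gene's end also fell on neighbours. The other end of Atg9a, at 0.0694% ± 0.0838 in cKO mice and 0.0757% ± 0.0879 in controls, holds the start of Abcb6. The far end of Gabarap, where Phf23 starts, was at 0.164% ± 0.19 in cKO mice and 0.0724% ± 0.0483 in controls.

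One motif was searched in the RefSeq promoters because Tfeb is known to bind it. CACGTG, the core of its E-box, reads the same on both strands. It occurred in 4 of the 34 promoters of listed genes (Atg14, Bnip3, Lamp1 and Rubcn) and in 7.15% of all 32851 promoters. The Rubcn copy lies before the internal start, 9363 bp into the gene, and not before the first start. Lamp1 held 4 copies, shown in capitals in the 250 bases before its start on the plus strand.
Lamp1, chr8:13158911-13159160: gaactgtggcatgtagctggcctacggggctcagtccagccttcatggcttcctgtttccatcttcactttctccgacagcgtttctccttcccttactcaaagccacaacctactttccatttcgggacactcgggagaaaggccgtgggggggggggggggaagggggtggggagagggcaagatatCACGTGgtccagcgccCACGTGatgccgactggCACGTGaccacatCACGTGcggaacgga
The CpG inside each copy was not among those measured at any of the 4 genes. The nearest readings at Lamp1, 58 CpGs from 68 to 449 bp past the start, averaged 0.218% ± 0.197 in cKO mice and 0.191% ± 0.0756 in controls. TGACGTCA, the cAMP response element, which also reads the same on both strands, occurred in 1.79% of all promoters and in none of the 34 listed ones.

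Gene bodies were mostly methylated. Of 23 bodies with at least 3 CpGs, 15 had a mean over 80%, and the median was 92.1%, against a median of 79.1% and 49.3% over 80% among all 11597 bodies measured. Bodies of the cargo receptors Sqstm1, Nbr1 and Bnip3 were at 94.2 to 98.5%, and the body of Map1lc3b, the Atg8 protein most used to follow autophagy, was at 95.5%. In the lipid group, Atg2a, Atg2b, Wipi1, Wipi2 and Atg9a were at 91.8 to 96.3%. The 30 CpGs in the body of Atg9b were unmethylated, at 0.213%. The 7 CpGs behind the body level of Ulk2, 0.0622%, belonged to the unmethylated run at its start, which reached 1190 bp. The next CpG kept in this gene of 79737 bp lay 68327 bp in, at 99.3%, and was not part of that level. The rest of the Ulk2 body was thus hardly measured.

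Among initiation genes, the body of Rb1cc1, the scaffold of the ULK complex, was at 95.9% ± 6.96 in cKO mice and 96.2% ± 4.29 in controls. Atg13 was lower, at 80.2% ± 5.22 in cKO mice and 77.8% ± 6.49 in controls. In the lipid kinase group, Ambra1 was at 96.9% ± 1.29 in cKO mice and 93.8% ± 1.71 in controls with reads summed. With equal weight for each CpG, a calculation added after the values were seen, Ambra1 was at 91.1% ± 1.1 in cKO mice and 90.6% ± 1.26 in controls. Becn1, the Beclin 1 subunit, was at 94% ± 2.9 in cKO mice and 97.9% ± 1.87 in controls, and Atg14 at 95.2% ± 3.92 in cKO mice and 98.9% ± 1.25 in controls. Neither was in the tested range, and the groups overlapped in both. Pik3r4 gave 91.4% in both groups (SD 2.69 in cKO mice and 2.25 in controls). Pik3c3 varied most in this group, at 67.8, 86.5, 84.5 and 68.2% in cKO mice 25, 28, 45 and 46, against 84.9, 62.6, 85.3 and 75.8% in controls 1, 34, 36 and 37. Vmp1, which mixes 5 CpGs under 10% with 5 over 90%, was at 55.9% ± 6.79 in cKO mice and 57.1% ± 12.9 in controls. Wipi2 was at 96.7% ± 0.528 in cKO mice and 95.9% ± 1.25 in controls with reads summed. Its equally weighted levels were 98.1% ± 0.214 in cKO mice and 93.7% ± 1.73 in controls. It was the 1 body of 23 whose groups did not overlap under that weighting, for which no share over all genes was computed. Of the 13 bodies tested, 9 turned sign between the summed and the equally weighted reading, among them Atg13 (2.47 points summed and -3.68 equally weighted) and Vmp1 (-1.22 points summed and 2.35 equally weighted).
Averaged over the 23 bodies, each mouse lay between 71.6 and 77%. Means were 75% ± 1.35 in cKO mice and 75.6% ± 2.66 in controls (SD, n = 4 each), with control 34 lowest.

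Summed levels of bodies that mix methylated and unmethylated CpGs varied widely from mouse to mouse. Ulk1, over 15 CpGs of which 11 are under 10%, was at 9.07, 16.1, 32.3 and 14.6% in cKO mice 25, 28, 45 and 46, against 28.3, 12.4, 34.9 and 34.6% in controls 1, 34, 36 and 37, when reads were summed. With every CpG weighted equally, a choice made after seeing the summed values, the same mice spanned only 19.4 to 21%, with means of 20.2% ± 0.587 in cKO mice and 19.7% ± 0.235 in controls. Tfeb behaved alike over 91 CpGs, at 28.1 to 50% with reads summed and 44.2 to 46.3% with CpGs weighted equally. Rubcn spanned 25.2 to 48.8% with reads summed and 53.2 to 56.9% with equal weights. The mice with the lowest summed levels at Ulk1 and Tfeb, cKO 25 and control 34, were those with the lowest coverage ratios, 0.342 and 0.26. At Rubcn control 34 was again lowest, but cKO 25 read 39.2%, above cKO 46 at 37.1% (ratio 0.46) and cKO 28 at 38.1% (ratio 0.502). The part of coverage in the summed levels was not tested. Neither body passed the moderated quasi-binomial test (adjusted p = 0.955 for Ulk1 and 0.957 for Tfeb).

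**Figure D4:**
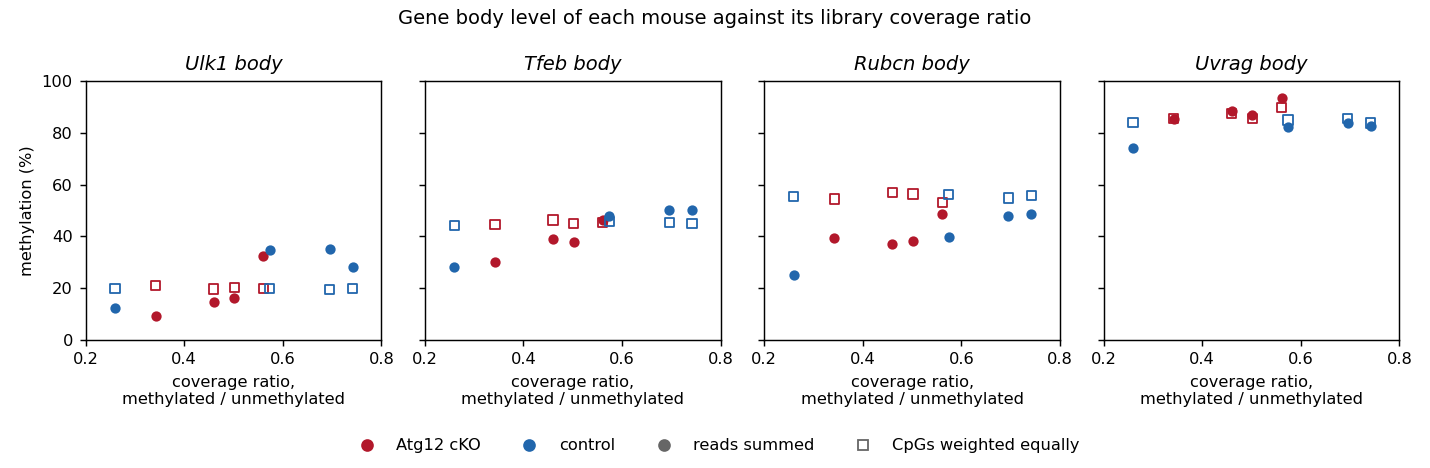
Body level in percent of Ulk1, Tfeb, Rubcn and Uvrag in each mouse against the coverage ratio of its library, with reads summed (filled circles) and CpGs weighted equally (open squares), Atg12 cKO in red and controls in blue. Summed levels of Ulk1 and Tfeb lie low in the libraries of ratio 0.342 (cKO 25) and 0.26 (control 34), while equally weighted levels stay within 19.4 to 21% and 44.2 to 46.3%. At Rubcn, cKO 25 lies at 39.2% with reads summed, above cKO 46 at 37.1%.

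Across all families of tests, no feature of the listed genes passed an adjusted p of 0.05 under the moderated quasi-binomial model. The families were 302 CpGs, 38 windows of 1 kb, 2 gene ends, 13 bodies and 4 flanks. In the whole table, 0.00032% of CpGs passed and 0% of windows, ends, bodies and flanks. The smallest adjusted p was 0.624 for a CpG and 0.674 for a window. With edgeR or limma in place of the main test the count was also 0 in every family. At an unadjusted p under 0.05, 20 of 302 CpGs passed, a share of 6.62% against a background of 6.56%. Of these, 12 were higher in cKO mice (background 2.41%) and 8 lower (background 4.15%). Among windows 2 of 38 passed, against a background of 6.5%, with 2 higher in cKO mice (background 2.09%) and 0 lower (background 4.41%). Gene ends gave 0 of 2 (background 5.95%), bodies 1 of 13 (background 4.39%) and flanks 0 of 4 (background 5.98%). Using edgeR, 9 CpGs, 3 windows, 0 ends, 1 body and 0 flanks had an unadjusted p under 0.05, and using limma 16, 0, 0, 1 and 0. The shares over all features with edgeR and limma are not given here. The median difference over tested CpGs of the listed genes was -0.586 percentage points, against -0.915 over all tested CpGs. Groups did not overlap at 6 CpGs (background 3.12%), 2 windows (background 3.47%) and 1 body (background 2.4%). The median difference over the 38 windows was 2.19 points, with 24 higher in cKO mice, against -0.268 over all windows tested.

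The window of smallest p lay at Atg2b, beside its shared start (chr12:105686001-105687000). Its 3 CpGs read 45.2, 51.6, 33.3 and 66.3% in cKO mice 25, 28, 45 and 46, against 26.1, 27.2, 44.8 and 36.9% in controls 1, 34, 36 and 37. The ranges overlapped, and means were 49.1% ± 13.7 in cKO mice and 33.7% ± 8.81 in controls (SD, n = 4 each; adjusted p = 0.674). The difference was 15.4 points with all mice and 9.63 without cKO 46. These CpGs form the edge of the unmethylated start. At -782 bp from the start the level was 5.6% ± 6.83 in cKO mice and 0% in all controls. At -806 bp it was 58.9% ± 40.7 in cKO mice, where cKO 45 read 0%, and 49.9% ± 16.8 in controls. At -813 bp it was 82.8% ± 17.8 in cKO mice and 52.9% ± 22.1 in controls, and 36 to 250 reads stood behind each value.

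Uvrag held the other window with an unadjusted p under 0.05. At chr7:98903001-98904000, far inside this large gene, 3 CpGs were at 94.2, 97.7, 100 and 94.5% in cKO mice, against 93.2, 91, 93.6 and 88.8% in controls. Every cKO mouse lay above every control, by a mean of 4.95 percentage points (adjusted p = 0.728). In a second Uvrag window at chr7:98892001-98893000, 6 CpGs read 55.3, 56.5, 61.9 and 53.1% in cKO mice, against 50.3, 41.1, 53 and 48% in controls. Here too the groups did not overlap with reads summed (difference 8.61 points, adjusted p = 0.828). At each CpG of this second window taken alone they overlapped. The widest gap was at 98892616, at 85.2% ± 19.8 in cKO mice and 50% ± 35.9 in controls, on 23 to 136 reads. Means were lower in cKO mice at 98892572 (3.07% against 4.24%) and 98892585 (75.4% against 77.5%), and higher at the rest. The whole Uvrag body over 66 CpGs was at 85.4, 86.9, 93.3 and 88.4% in cKO mice, against 82.5, 74.3, 83.7 and 82.4% in controls. It was the only body with an unadjusted p under 0.05 (difference 7.76 points, adjusted p = 0.955). With CpGs weighted equally the difference was 2.5 points, at 87.1% ± 1.94 in cKO mice and 84.6% ± 0.794 in controls, and the groups overlapped.

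The other windows with the smallest p in each direction overlapped between groups and had adjusted p from 0.787 to 0.923. With reads summed, higher means in cKO mice were read downstream of Atg9a (90.8% ± 4.06 in cKO mice and 86.3% ± 1.99 in controls) and in a window of Atg13 (71.8% ± 8.68 in cKO mice and 66.3% ± 4.59 in controls). A further Uvrag window, starting at 98917001, was at 81.8% ± 3.71 in cKO mice and 79.7% ± 5.83 in controls. Lower means were read downstream of Uvrag (91.7% ± 4.81 in cKO mice and 96.3% ± 1.27 in controls) and in a second window past Atg9a (91.9% ± 7.49 in cKO mice and 96.6% ± 4.88 in controls). The Tfeb window starting at 47758001 was at 92.1% ± 1.26 in cKO mice and 93.2% ± 5.35 in controls, and the one starting at 47768001 at 76.2% ± 3.24 in cKO mice and 81.2% ± 5.44 in controls. No CpG behind the latter differed as much alone. Position 47768020 was at 75.7% ± 7.07 in cKO mice and 75.6% ± 8.11 in controls. Position 47768095 was at 94.4% ± 8.06 in cKO mice and 96.3% ± 4.52 in controls, and 47768966 at 0% in every mouse. The 3 CpGs of Sqstm1 were at 90.9% ± 8.17 in cKO mice and 97.6% ± 4.88 in controls. Single mice moved several of these differences by over 1.5 times. That of Atg13 was 5.55 points with all mice, 8.39 without cKO 28 and 2.19 without cKO 46. At the Uvrag window starting at 98917001 it was 2.11 points with all mice, from 1.02 without control 36 to 5.03 without control 34. At Sqstm1 it was -6.65 points with all mice and -2.89 without cKO 28.

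**Figure D5:**
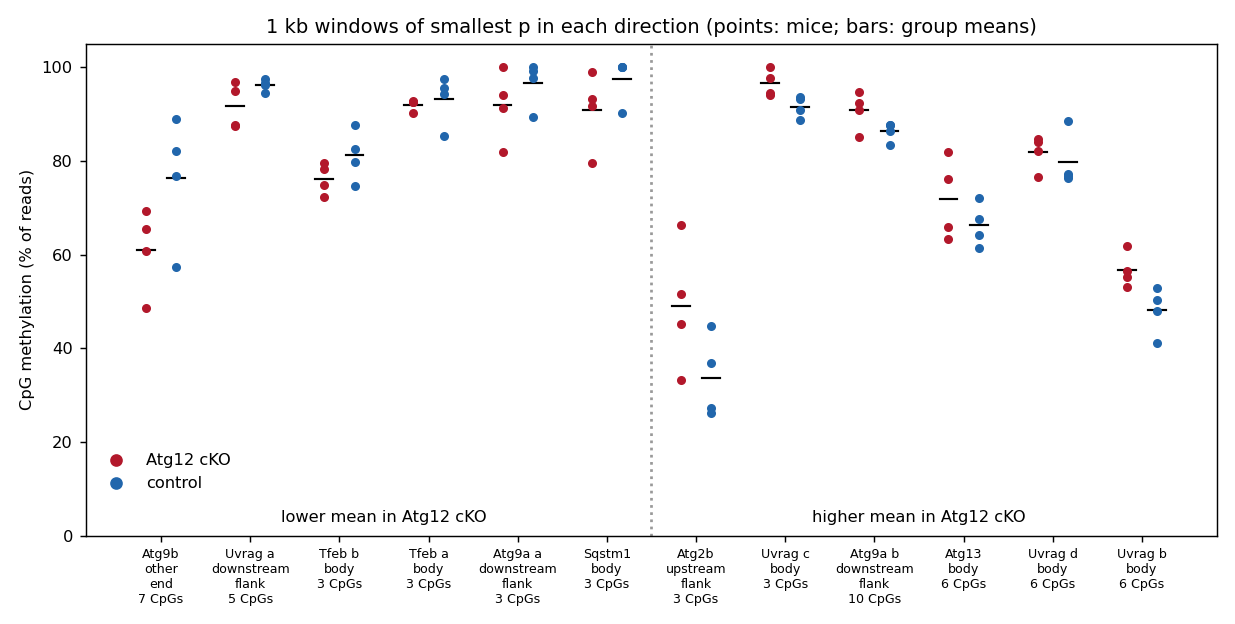
Methylation in percent of the 1 kb windows with the smallest p in each direction, with each mouse as a point, Atg12 cKO (red) left of control (blue), and bars at group means; letters order the windows of 1 gene along the chromosome. Of the 12 windows, with reads summed, the groups separate in Uvrag windows b and c, and the widest differences, at Atg9b and Atg2b, come with overlapping mice.

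The windows of widest range over the 8 mice had overlapping groups. In the body of Pik3c3, 6 CpGs read 30.9, 69.9, 86.6 and 44% in cKO mice 25, 28, 45 and 46, against 60.9, 18.2, 77 and 66% in controls 1, 34, 36 and 37. The groups overlapped over most of the range (adjusted p = 0.982). An Atg2b window further upstream (chr12:105689001-105690000) read 66.4, 91.5, 85.6 and 57.4% in cKO mice, against 87, 19.6, 86 and 85.2% in controls, with control 34 far below the rest. Upstream of Tfeb, 3 CpGs read 70.2, 86.9, 80.3 and 64.7% in cKO mice, against 80.5, 43.7, 66.9 and 73.6% in controls, again lowest in control 34.

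Of single CpGs, the smallest p belonged to one in Tfeb, at 47787821 on chromosome 17. It read 100% in all 4 cKO mice, against 67.1, 100, 71.6 and 69.7% in controls 1, 34, 36 and 37 (difference 22.9 points, 20 to 252 reads, adjusted p = 0.624). Control 34 matched the cKO mice. An Ambra1 CpG at 91772820 on chromosome 2 read 100, 100, 99.87 and 100% in cKO mice, against 98.7, 65.6, 91.3 and 94.8% in controls, with no overlap (adjusted p = 0.726). A Uvrag CpG at 98903868 on chromosome 7, inside the window above, was at 97.6% ± 3.02 in cKO mice and 85.4% ± 7.96 in controls (adjusted p = 0.739). Among CpGs lower in cKO mice, one upstream of Uvrag at 99146142 read 64.6, 100 and 59.1% in cKO mice 25, 28 and 45, against 91.4, 100, 89.8 and 100% in controls; cKO 46 had no value and was left out of the fit (adjusted p = 0.69). At a Becn1 CpG, position 101293530 on chromosome 11, the difference came from cKO 45 alone, at 58.7% where every other mouse read 100% (adjusted p = 0.739). One CpG of Atg9b at 24384278 on chromosome 5 was at 87.2% ± 15.5 in cKO mice and 94.8% ± 2.97 in controls (adjusted p = 0.752).

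Ends other than starts had at least 3 CpGs at 7 genes of known strand, with means from 0.0726 to 96.6%. Those of Ulk1 (92.4% ± 2.04 in cKO mice and 93.2% ± 4.95 in controls, adjusted p = 0.957) and Atg9b were in the tested range, and neither passed an unadjusted p of 0.05. The other end of Atg2a was at 96.8% ± 2.12 in cKO mice and 96.4% ± 0.407 in controls. At the upper coordinate of Map1lc3a, whose strand was not assigned, 2 CpGs were at 85.2% ± 6 in cKO mice and 80.9% ± 3.93 in controls. A single CpG at the other end of Uvrag read 100, 44.1, 27.9 and 100% in cKO mice, against 90.8, 100, 91.4 and 91.5% in controls, and a single one at Atg2b read 80% in cKO 25 and 100% in every other mouse. For Map1lc3b the other end was low, at 1.98% ± 1.49 in cKO mice and 3.16% ± 2.84 in controls over 4 CpGs. The 4 flanks tested all had higher means in cKO mice with reads summed, but that of Atg9a differed by -1.26 points with equal weights and that of Atg2b by -10.8 points without control 34. That of Atg9a was at 90.9% ± 4.01 in cKO mice and 87% ± 1.78 in controls (adjusted p = 0.89), and those of Atg2b, Tfeb and Wipi1 had adjusted p of 0.96, 0.966 and 0.995. Downstream of Ulk1, at the neighbour Pus1, 25 CpGs were at 0.0224% ± 0.0169 in cKO mice and 0.204% ± 0.246 in controls without overlap. Among flanks of any level, 2.79% did not overlap, and this was 1 of 11 at the listed genes.

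Of 50 further genes of the pathway, 30 had a measured start and all 30 were under 5%, against 86.6% of start ends of all genes. Of 11 conjugation genes, 7 starts were measured, among them Atg5, the partner of Atg12, at 0.286% ± 0.149 in cKO mice and 0.147% ± 0.052 in controls, and Atg7, the activating enzyme, at 0.455% ± 0.748 in cKO mice and 0.0925% ± 0.0622 in controls. For fusion and lysosome genes it was 14 of 22 and for other receptors and regulators 9 of 17. No end or body of these lists passed an adjusted p of 0.05 in the moderated quasi-binomial test. At an unadjusted p under 0.05 there were 0 of 5 tested bodies of conjugation genes and 1 of 10 of fusion and lysosome genes, lower in cKO mice. Among other receptors and regulators it was 1 of 8, higher in cKO mice, and among all bodies 4.39%.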

How the data were processed

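Methylation was measured in sorted stem cells of 8 mice, 1 library each. The authors deposited, per cytosine and strand, coverage as a count of reads and the percent of reads showing C or T, per the file headers. No cytosine under 10 reads was listed. CASAVA 1.8.2, Bismark and mm10 were used, per the submitters' processing notes; for trimming, duplicates and bisulfite conversion, the sources used here name no step. No molecular identifiers are named there, so reads may share a source molecule and coverage speaks to counting error only.

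Reads were recovered as coverage times percent and strands of a CpG were added. A value under 10 reads or above that mouse's 99.9th percentile of coverage was dropped. CpGs needed a value in at least 3 mice per group. Windows of 1 kb, gene ends (within 1000 bp of a gene coordinate), bodies (over 1000 bp inside) and flanks (1000 to 5000 bp outside) used CpGs read in all 8 mice, at least 3 each, with reads summed. Coordinates were those of RefSeq for GRCm38.p6, and strand came from its promoter table, which matched 27 of 31 genes. Features with a mean level from 5 to 95% were tested across the autosomes by a logistic model on genotype of quasi-binomial form, with the overdispersion moderated across features (squeezeVar, limma 3.58.1, R 4.3.3) and kept at 1 or more, two-sided, with Benjamini-Hochberg adjustment over each family. Alternatives were edgeR 4.0.16, limma on log2 ratios, other minimums and levels, and leaving out each mouse. The script was tested on simulated data. Genes were named by rank of p, range or level, a rule written with the lists; the members and lists were chosen with earlier results of these data known. Motifs, neighbours and single CpGs of windows were chosen after values were seen. Figures were drawn with matplotlib 3.10.9.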

Additional observations from a re-analysis of the deposited data

Results flagged for a closer look

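In 13 of the 73 groups of 4 mice examined at named features, 1 mouse stood further from the other 3 than Dixon's critical value for 4 samples. Chance flags about 1 in 20 groups, but that rate does not hold here, since the features were named by rank of p or of range, several share CpGs, and in 5 of the 13 the other 3 mice were tied at 100%. Control 34, the library with the lowest coverage of methylated DNA, accounted for 7. It read 100% at the single CpG measured at the other end of Uvrag, where the other controls read 90.8 to 91.5%, and 74.3% over the Uvrag body, against 82.4 to 83.7%. At the Atg2b upstream flank and its window it read 19.6%, against 85.2 to 87%, and over the Tfeb body 28.1%, against 48 to 50%. At the Uvrag window starting at 98917001 it read 88.5%, against 76.4 to 77.2%, and at the Tfeb CpG at 47787821 it read 100%, against 67.1 to 71.6%.

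Control 1 read 90.2% over the Sqstm1 body and its window, which hold the same 3 CpGs, where the other controls read 100%. Among cKO mice, cKO 25 read 80% at the single CpG measured at the other end of Atg2b, where the others read 100%. In cKO 45 the Tfeb window starting at 47758001 read 90.2%, against 92.6 to 92.8%, the Becn1 CpG at 101293530 read 58.7%, against 100%, and the Ambra1 CpG at 91772820 read 99.87%, against 100%. The part of library coverage in these values was not tested.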

How the results depend on the processing

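No feature of the listed genes passed an adjusted p of 0.05 under any setting run, each mouse left out included. At an unadjusted p under 0.05, leaving out each mouse in turn gave 14 to 26 CpGs, 1 to 3 windows, 1 to 3 bodies, 0 ends and 0 to 1 flanks. A level range of 1 to 99% gave 56 of 654 CpGs, 4 of 76 windows and 2 of 21 bodies. The shares over all features under these settings are not given here, so these counts have no background beside them. There was 1 window without cKO 28, cKO 46 or control 37, 1 flank without cKO 25, and 2 bodies without cKO 45. Without control 34 the 3 bodies were Ulk1 (-14.6 points), Uvrag (5.6 points) and Tfeb (-11 points). The share of all bodies passing without control 34 is not given either, so this count is not a result about the listed genes. No body passed with CpGs read in 3 mice per group. No paired analysis was possible because the groups share no mouse number.

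Signs turned at several features far from the threshold; the cause was not tested. With edgeR the Atg2b window starting at 105689001 had an effect of -0.39 and the Atg2b flank -0.45 on its log scale, and with a minimum of 20 reads the other end of Atg9b differed by 0.0632 points. Leaving out 1 mouse gave -10.8 to 11.7 points at that Atg2b window and flank, -10.1 to 11.3 at the Pik3c3 window, -3.71 to 0.314 at the Tfeb window starting at 47758001, -2.43 to 1.22 at the other end of Atg9b, -3.11 to 0.694 at that of Ulk1 and -0.225 to 2.19 over the Atg9a body. Weighting CpGs equally, an alternative chosen after seeing the data, turned the sign at 5 of the 11 named ends, bodies and flanks, to 0.47 points at the Ulk1 body, 0.285 at the Tfeb body, -0.326 at the Atg9a body, -0.298 at the Atg2a body and -1.26 at the Atg9a flank. Over all 13 tested bodies it turned 9, also those of Atg13, Vmp1, Pik3c3, Wipi1 and Rubcn. With reads summed, leaving out 1 mouse kept the sign of the differences at the Atg9a windows (-7.45 to -1.46 and 3.2 to 6.39), the Tfeb window starting at 47768001 (-7.14 to -2.79) and the downstream Uvrag window (-6.2 to -3.1). Windows were not read with CpGs weighted equally, so whether their signs depend on that weighting was not tested. The Atg9a flank that turned sign under it holds the CpGs of both Atg9a windows.

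With 4 mice per group and a tested range of 5 to 95%, small differences at starts were not tested, and 8 bodies had fewer than 3 CpGs.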
